A study of Homo sapiens with 17 samples.

Results

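The proteasome is built from the products of genes whose names begin with PSM, and the mRNAs described here are those of the protein-coding genes with a symbol of PSM, a letter from A to G and a number. The table lists 46 such genes of 18869 genes in all. They comprise 7 α ring genes, 7 constitutive and 2 inducible β genes, 6 ATPase genes, 11 further regulatory particle subunits, 2 base assembly chaperones, 4 core assembly chaperones and 5 activators or inhibitors. PSMC3IP, which encodes a meiotic recombination factor, and PSME3IP1, whose product binds PSME3, match by name alone. PSMA8, PSMB8, PSMB11 and PSMD5 were looked for and were not analysed here. Levels were measured in lysate RNA before IP (Input) and in RNA recovered by immunoprecipitation (IP) of the poly(A) binding proteins PABPC and PABPN, as TPM for RNA abundance and EPKM for editing by a ribosome-bound deaminase, and with PABPC or with PABPN means in that IP. Counts and medians use genes whose TPM reached 5 in each of the IPs. This filter kept 45 of the 46 and 9607 of 13473 protein-coding genes (PCGs). PSMB9, an inducible β subunit, did not pass, with a TPM of 0.0872 in Input RNA, 0.259 with PABPC and 0.131 with PABPN and an EPKM of 0 in each fraction.

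The data came from Ribo-STAMP, in which the cytidine deaminase APOBEC1 is fused to the small ribosomal subunit protein RPS2 so that mRNAs in contact with ribosomes acquire C-to-U edits. HEK293T cells, an established human embryonic kidney line, carried a doxycycline-inducible RPS2-STAMP construct or, as Control-STAMP, APOBEC1 without RPS2, inserted by lentivirus. Endogenous RPS2 was still present, and whether each line came from 1 clone is not given in the sources used here. All cells received 50 ng/ml doxycycline for 24 h and were crosslinked with 0.1% formaldehyde. The study describes the lysate as cytoplasmic, whereas the sample labels give lysis in RIPA buffer and no fractionation, so nuclear RNA in these fractions was not tested for. Each lysate provided an Input and was divided for IP of PABPN or of PABPC, the nuclear and the cytoplasmic poly(A) binding protein. There were 17 samples. RPS2-STAMP had 3 Input, 3 PABPN IP and 3 PABPC IP samples, and Control-STAMP had 3 Input, 3 PABPN IP and 2 PABPC IP samples.

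Editing was given as normalized EPKM, an edit rate per transcript length and sequencing depth from which the editing in Control-STAMP had been subtracted. No value lay below 0. RNA abundance was given as an average TPM for each fraction. Each gene therefore had 1 EPKM and 1 TPM for each fraction, with replicates already combined, so no difference between fractions has a replicate check, an error or a p-value. Read counts were not used here, so the depth behind each value is unknown, and an EPKM of 0 is read only as listed at 0. TPM summed to 854272 in Input RNA, 995724 with PABPC and 975719 with PABPN. Of the markers chosen for HEK293T cells, 6 of 6 were listed, from KRT8 at an Input TPM of 2.16 to VIM at 184, while PTPRC, CD3E, HBB, ALB and NPHS1, markers of other cell types, were not among the genes of the table.

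The proteasome degrades proteins tagged with ubiquitin. Its core particle is a barrel of stacked rings, with α subunits (PSMA) forming the gated outer rings and β subunits (PSMB) the inner rings that hold the proteolytic sites. The regulatory particle caps the barrel. Its base contains a ring of ATPases (PSMC) that unfold substrates and push them through the gate, and its lid (PSMD) removes ubiquitin. The subunits are made in fixed proportions and put together with dedicated chaperones, some of which share the PSM names. PSME proteins are alternative caps, and PSMF1 is an inhibitor of the core in vitro.

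APOBEC1 edits cytidines, so the editable bases of these mRNAs can be read from their sequence. The end of the coding sequence, up to and including the stop codon, is shown for members with contrasting behaviour, with every cytidine in capitals. PSMB5 had the highest EPKM of the members in Input RNA, PSMC1 with PABPC and PSMA3 with PABPN, PSME4 had the lowest PABPC IP to PABPN IP ratio in TPM, and PSMG3 was abundant with an EPKM of 0 in all 3 fractions. The sequences were read from hg38 along the MANE Select transcript of GENCODE release 44, are exonic and each lie within 1 exon. The table gives no edit positions, so none of these cytidines is known here to have been edited.
PSMB5 (chr14:23026089-23026148, minus strand): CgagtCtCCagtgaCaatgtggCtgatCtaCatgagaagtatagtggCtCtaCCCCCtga
PSMC1 (chr14:90272348-90272407, plus strand): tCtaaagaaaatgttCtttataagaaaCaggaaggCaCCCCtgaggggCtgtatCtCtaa
PSMA3 (chr14:58271851-58271895, plus strand): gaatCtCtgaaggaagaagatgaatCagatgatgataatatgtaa
PSME4 (chr2:53866089-53866148, minus strand): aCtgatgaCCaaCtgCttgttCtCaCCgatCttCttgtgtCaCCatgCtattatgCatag
PSMG3 (chr7:1567698-1567757, minus strand): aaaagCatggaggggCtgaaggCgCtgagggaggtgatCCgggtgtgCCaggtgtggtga
The PSMB5 stretch held 15 cytidines among 60 bases and the PSMC1 stretch 11. The last coding stretch of PSMA3 held 3 cytidines among 45 bases, and its coding sequence had the lowest share of cytidine among the members, 16.3%. PSME4 had 16 cytidines and PSMG3 8 among 60 bases. Over the members, cytidine made up 22.1% of the coding sequence in the median against 25.3% over PCGs. Across the 45 members the share of cytidine and EPKM had a Spearman's rho of 0.14 in Input RNA, 0.12 with PABPC and -0.08 with PABPN, given as a description because genes share the same libraries.

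Most proteasome mRNAs had an EPKM above 0 in every fraction. The median EPKM of the 45 members was 0.0689 in Input RNA, 0.0832 with PABPC and 0.0893 with PABPN. Over PCGs the medians were 0.0273, 0.0501 and 0.0334, so the members' median lay above the PCG median in each fraction. The members' median was slightly higher with PABPN than with PABPC, the reverse of the order over PCGs. Gene by gene, the median EPKM difference of PABPC minus PABPN was 0 over members and 0.0108 over PCGs. The place of the Input depended on the summary. With means in place of medians the members had 0.11 in Input RNA, 0.0925 with PABPC and 0.103 with PABPN, so the Input was highest. Members above the PCG median numbered 30 in Input RNA, 28 with PABPC and 37 with PABPN. An EPKM above 0 was listed for 37 members in the Input (78.1% of PCGs), 38 in the PABPC IP (82.6% of PCGs) and 40 in the PABPN IP (72.9% of PCGs). In all 3 fractions 30 of 45 were above 0, which is 66.7% against 50.5% of PCGs.

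The members were also abundant mRNAs, and EPKM moves with abundance. Their median TPM was 51.5 in Input RNA, 81.5 with PABPC and 64.2 with PABPN, against 15.8, 28.9 and 38.4 over PCGs. Across members EPKM and TPM had a Spearman's rho of 0.47 in Input RNA, 0.40 with PABPC and 0.22 with PABPN, and across PCGs 0.53, 0.45 and 0.25. Among genes between the members' Input TPM quartiles of 24.4 and 74.2, the 23 members had a median EPKM of 0.0983 in Input RNA, 0.0832 with PABPC and 0.0855 with PABPN. The 2367 other PCGs in this range had 0.0651, 0.0890 and 0.0497. In this range of Input abundance the members were thus higher than other PCGs in the Input and the PABPN IP and slightly lower in the PABPC IP.

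**Figure D1:**
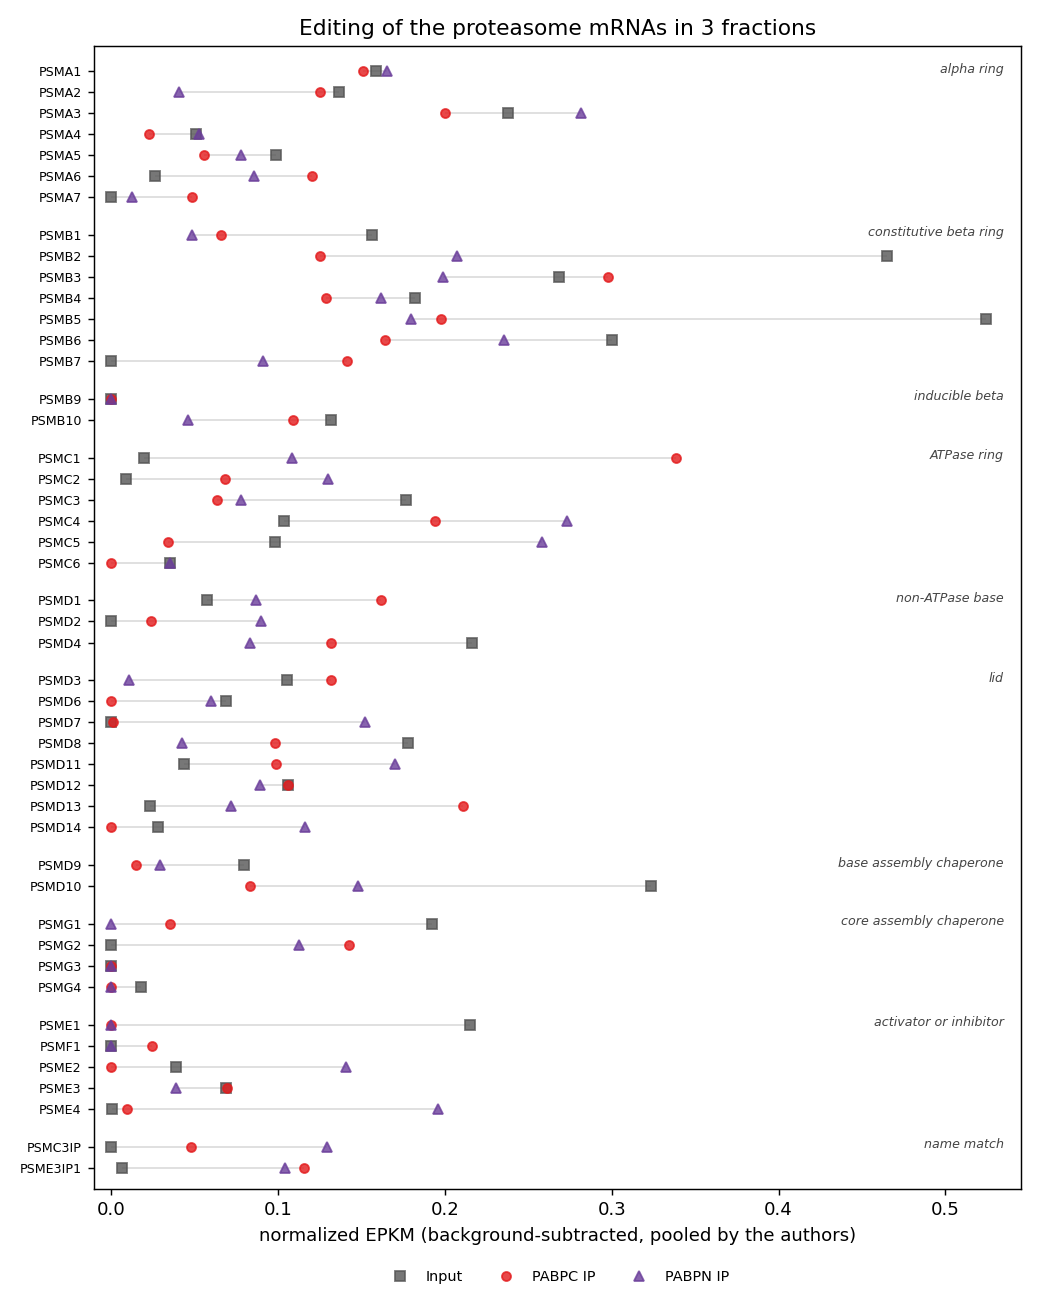
Normalized EPKM (horizontal axis) of each of the 46 proteasome mRNAs in the Input (squares), PABPC IP (circles) and PABPN IP (triangles), grouped by role, with a grey line joining the lowest and highest fraction of each gene. PSMB5 and PSMB2 reach the highest values, both in the Input, and PSMC1 lies apart in the PABPC IP at 0.339.

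The Input was the fraction with the highest EPKM for the largest number of members, and the PABPC IP for the largest number of PCGs. Of the 45 members, 18 had their highest EPKM in the Input, which is 40% against 26.6% of PCGs. The PABPC IP was highest for 12 members (42.6% of PCGs) and the PABPN IP for 14 (28.7% of PCGs). PSMG3, with 0 throughout, had no highest fraction.

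All 7 α ring mRNAs had an EPKM above 0 with PABPC (82.6% of PCGs) and with PABPN (72.9% of PCGs). The α subunits form the gate through which substrates enter. PSMA3 stood highest, with an EPKM of 0.238 in Input RNA, 0.200 with PABPC and 0.282 with PABPN. PSMA1 was nearly level across fractions at 0.159 in Input RNA, 0.151 with PABPC and 0.165 with PABPN. PSMA2 was low in the PABPN IP alone, with 0.136 in Input RNA, 0.125 with PABPC and 0.0406 with PABPN. PSMA3 was thus the α mRNA with most editing in every fraction. PSMA4 had 0.0512 in Input RNA, 0.0226 with PABPC and 0.0530 with PABPN, and PSMA5 had 0.0989 in Input RNA, 0.0558 with PABPC and 0.0776 with PABPN. PSMA6 was lowest in the Input and highest in the PABPC IP, with 0.0266 in Input RNA, 0.121 with PABPC and 0.0855 with PABPN. PSMA7 was the most abundant α mRNA, with a TPM of 163 in Input RNA, 373 with PABPC and 318 with PABPN, and had an EPKM of 0 in Input RNA, 0.0483 with PABPC and 0.0126 with PABPN. The α ring median was 0.0989 in Input RNA, 0.121 with PABPC and 0.0776 with PABPN. In the release 44 annotation, other genes spanned 100% of the exonic bases of PSMA3 (chr14:58244843-58272012, 11 exons in the MANE transcript). These were PSMA3-AS1, ARMH4 and an unnamed gene, and the part of shared reads in its values was not tested. Here and below, an overlap counts the whole span of another gene, introns included, on either strand.

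The constitutive β ring held the members with the highest EPKM in the Input. PSMB5, PSMB6 and PSMB7 carry the chymotrypsin-like, caspase-like and trypsin-like sites, and the other β subunits are structural. PSMB5 (chr14:23016543-23035230, minus strand) had an EPKM of 0.524 in Input RNA, 0.198 with PABPC and 0.180 with PABPN, the highest Input value of the members. PSMB2 followed with 0.465 in Input RNA, 0.125 with PABPC and 0.208 with PABPN. For both, the Input lay well above either IP. PSMB6 had 0.300 in Input RNA, 0.164 with PABPC and 0.235 with PABPN. PSMB3 had its highest value in the PABPC IP, with 0.268 in Input RNA, 0.298 with PABPC and 0.199 with PABPN. PSMB4 was the most abundant member by TPM in the Input, at 265, and in the PABPC IP, at 674. With PABPN its TPM was 243, below PSMA7 at 318 and PSMG3 at 292. Its EPKM was 0.182 in Input RNA, 0.129 with PABPC and 0.162 with PABPN. PSMB1 had 0.156 in Input RNA, 0.0662 with PABPC and 0.0483 with PABPN, highest in the Input. PSMB7 departed from the other β mRNAs, being listed at 0 in the Input with 0.142 with PABPC and 0.0912 with PABPN, at an Input TPM of 107. The median over the constitutive β ring was 0.268 in Input RNA, 0.142 with PABPC and 0.180 with PABPN, and 7 of 7 lay above the PCG median in both IPs. PSMB10, which replaces PSMB7 in the immunoproteasome, was listed at 0.132 in Input RNA, 0.109 with PABPC and 0.0460 with PABPN, from an Input TPM of 17.3.

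ATPase ring mRNAs were mostly edited more with PABPN than with PABPC, with PSMC1 as the exception. PSMC1 (chr14:90256527-90275429, plus strand), whose product opens the core gate with its C-terminal tail, had an EPKM of 0.0196 in Input RNA, 0.339 with PABPC and 0.108 with PABPN. Its PABPC IP value was the highest of the members in that fraction and came from a TPM of only 23.6. PSMC4 had 0.104 in Input RNA, 0.194 with PABPC and 0.274 with PABPN, and PSMC5 had 0.0983 in Input RNA, 0.0342 with PABPC and 0.258 with PABPN. These values were highest in the PABPN IP for both, with PSMC5 showing the wider gap between the IPs. PSMC2 had 0.00873 in Input RNA, 0.0685 with PABPC and 0.130 with PABPN. PSMC3 was the only ATPase mRNA with its highest value in the Input, with 0.177 in Input RNA, 0.0632 with PABPC and 0.0780 with PABPN. PSMC6 was listed at 0 in the PABPC IP and at 0.0352 and 0.0354 in the Input and the PABPN IP. Of the 6 ATPase mRNAs, 1 was higher with PABPC (56.4% of PCGs) and 5 with PABPN (3597 of 9607 PCGs). By at least 2-fold on the log2(EPKM + 0.01) scale, 1 was higher with PABPC (36.3% of PCGs) and 2 with PABPN (21.1% of PCGs). Spans of other genes covered 90.8% of the exonic bases of PSMC2, 76.2% of PSMC1 (by NRDE2) and 61.9% of PSMC5 (by FTSJ3). PSMC1 also has 13 named pseudogenes. The values of PSMC1, PSMC2 and PSMC5 are therefore uncertain, and the part of shared reads was not tested.

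The non-ATPase base mRNAs encode the large scaffolds PSMD1 and PSMD2 and the ubiquitin receptor PSMD4. PSMD1 was highest in the PABPC IP, with 0.0572 in Input RNA, 0.162 with PABPC and 0.0868 with PABPN. PSMD2 was highest in the PABPN IP, with 0 in Input RNA, 0.0239 with PABPC and 0.0901 with PABPN. PSMD4 had the opposite order, with 0.216 in Input RNA, 0.132 with PABPC and 0.0831 with PABPN. No order of fractions was shared by these 3 mRNAs.

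Lid mRNAs had no common order of fractions. The lid is a horseshoe of scaffold subunits around the deubiquitinase PSMD14 and its partner PSMD7. PSMD14 was listed at 0.0282 in Input RNA, 0 with PABPC and 0.116 with PABPN. PSMD7 was listed at 0 in Input RNA, 0.000942 with PABPC and 0.152 with PABPN. Both enzyme-pair mRNAs therefore had their highest EPKM in the PABPN IP, although their TPM was higher with PABPC than with PABPN, 29.4 against 22.8 for PSMD14 and 106 against 84.8 for PSMD7. Among the scaffold mRNAs, PSMD3 had 0.106 in Input RNA, 0.132 with PABPC and 0.0109 with PABPN. PSMD13 had 0.0235 in Input RNA, 0.211 with PABPC and 0.0718 with PABPN. PSMD8, the most abundant lid mRNA, had 0.178 in Input RNA, 0.0982 with PABPC and 0.0425 with PABPN. These 3 were higher with PABPC than with PABPN. PSMD11 went the other way, with 0.0439 in Input RNA, 0.0989 with PABPC and 0.170 with PABPN. PSMD6 was listed at 0 in the PABPC IP, against 0.0688 in the Input and 0.0601 in the PABPN IP, and 60% of its exonic bases overlap PSMD6-AS1 or PSMD6-AS2. For PSMD7, 37.0% of exonic bases overlap an unnamed gene, and the part of shared reads was not tested for either. PSMD12 was close to level, with 0.106 in Input RNA, 0.106 with PABPC and 0.0893 with PABPN. Over the 8 lid mRNAs, 4 were higher with PABPC and 4 with PABPN, against the same PCG shares as for the ATPases.

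Of the 6 assembly chaperone mRNAs, 4 had their highest EPKM in the Input (26.6% of PCGs). PSMD10 and PSMD9 help to build the base and leave the finished particle. PSMD10 had an EPKM of 0.323 in Input RNA, 0.0832 with PABPC and 0.148 with PABPN, and PSMD9 had 0.0799 in Input RNA, 0.0150 with PABPC and 0.0294 with PABPN. PSMG1 and PSMG2 form a dimer that starts the α ring. PSMG1 had 0.192 in Input RNA, 0.0350 with PABPC and 0 with PABPN, whereas PSMG2 had 0 in Input RNA, 0.142 with PABPC and 0.112 with PABPN. The partners thus differed in the Input, where PSMG2 was listed at 0. PSMG3 and PSMG4 form the other α ring chaperone. PSMG3 (chr7:1567332-1571005, minus strand) was listed at 0 in all 3 fractions at a TPM of 74.2 in Input RNA, 218 with PABPC and 292 with PABPN, 1 of 199 PCGs past the TPM filter at 0 throughout. PSMG4 had 0.0181 in the Input and 0 in both IPs, at a TPM of 4.92 in Input RNA, 12.6 with PABPC and 19.2 with PABPN. In release 44 the exons of PSMG3 were overlapped over 27.0% of their bases by PSMG3-AS1, and those of PSMG4 over 42.7% by SLC22A23 and TUBB2B.

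The activator mRNAs showed no common order. PSME1 and PSME2 together form the cap induced by interferon. PSME1 had an EPKM above 0 in the Input alone, at 0.215, and was listed at 0 in both IPs. PSME2 was listed at 0.0388 in Input RNA, 0 with PABPC and 0.141 with PABPN. PSME3, the nuclear relative of these caps, had 0.0689 in Input RNA, 0.0696 with PABPC and 0.0389 with PABPN and was the most abundant activator mRNA. PSME4 (chr2:53864069-53970993, minus strand, 47 exons in the MANE transcript) encodes the largest single-chain activator. Its EPKM of 0.000788 in Input RNA, 0.00955 with PABPC and 0.196 with PABPN was high in the PABPN IP alone. PSMF1, the inhibitor, was listed at 0 in the Input and the PABPN IP and at 0.0246 in the PABPC IP. Of the name matches, PSMC3IP had 0 in Input RNA, 0.0479 with PABPC and 0.129 with PABPN, and PSME3IP1 had 0.00660 in Input RNA, 0.116 with PABPC and 0.104 with PABPN, so both were higher in either IP than in the Input.

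To ask which PABP these mRNAs were recovered with, log2 ratios of TPM between fractions were centred on their median over PCGs. That median was -0.19 for the PABPC IP over the PABPN IP, 0.99 for the PABPC IP over the Input and 1.14 for the PABPN IP over the Input, and all ratios are given relative to it. A centred ratio past 0.5 either way was counted. Each ratio shares fractions with the others, so the 3 comparisons are not independent, and their values are set side by side.

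Proteasome mRNAs lay towards PABPC and away from PABPN. For the PABPC IP over the PABPN IP, 36 of 45 members (80%) had a centred log2 ratio above 0.5, against 30.4% of PCGs, and 3 members lay below -0.5, against 31.5%. The median over members was 0.83. Relative to the Input, the PABPN IP stood further from the other PCGs. There, 33 of 45 (73.3%) lay below -0.5, against 21.6% of PCGs, and 4 lay above 0.5, against 24.5%, with a median of -0.93. In the PABPC IP over the Input the members stayed near the PCG median at 0.09, with 2 above 0.5 (8.37% of PCGs) and 3 below -0.5 (18.1% of PCGs). Without centring, the PABPN IP over Input median turned to 0.20, with 1 member below -0.5 and 17 above 0.5, so the low PABPN IP ratios hold relative to other PCGs and not in TPM itself. The PABPC IP over PABPN IP median stayed above 0, at 0.63, with 28 members above 0.5. For the PABPC IP over the Input the uncentred median was 1.08, with 42 members above 0.5 and 0 below -0.5. The fractions came from divided bulk lysates, and how their TPM relates to RNA per cell was not tested.

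**Figure D2:**
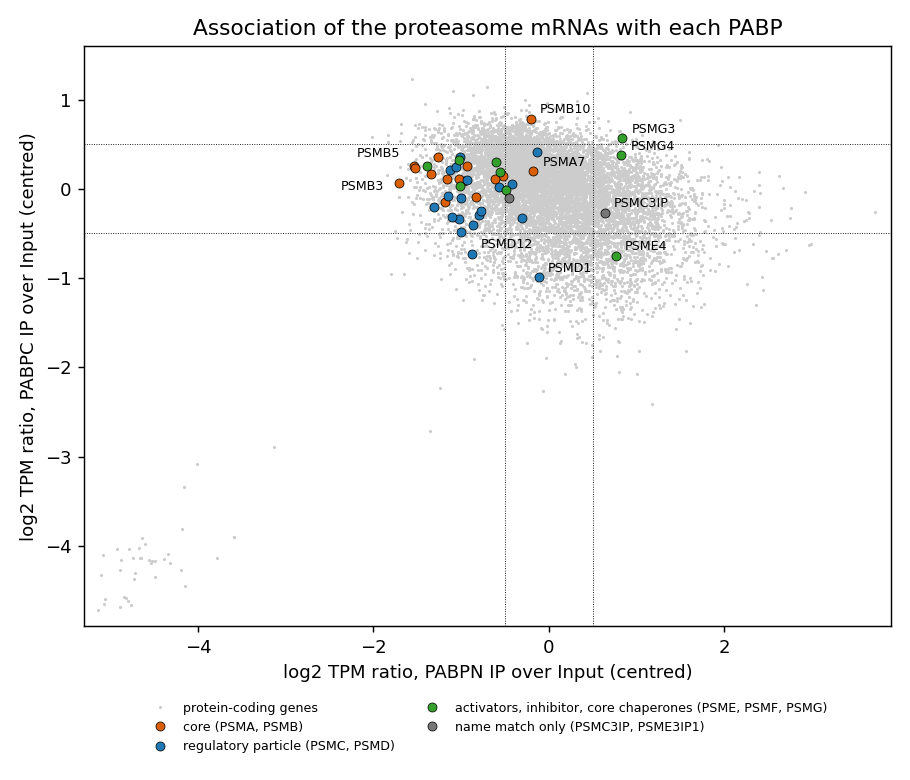
Centred log2 TPM ratio of the PABPC IP over the Input (vertical axis) against that of the PABPN IP over the Input (horizontal axis) for 9607 PCGs (grey) and 45 proteasome mRNAs (coloured by class), with dotted lines at -0.5 and 0.5. Of the members, 33 lie left of the lower PABPN line, while PSME4, PSMG3, PSMG4 and PSMC3IP lie right of the upper one.

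In the PABPC IP over PABPN IP ratio, the constitutive β ring stood highest of the groups by role. Its 7 mRNAs had a median of 1.67, from 1.18 for PSMB2 to 1.83 for PSMB5, and 7 of 7 passed 0.5. In the PABPC IP over the Input its median was 0.24, below the core assembly chaperones at 0.35. In the PABPN IP over the Input its median was -1.35. PSMB5 showed the ratio between the IPs in TPM directly, with 214 in Input RNA, 506 with PABPC and 162 with PABPN. PSMB3 had the lowest PABPN IP over Input ratio of the members, -1.71, at a TPM of 180 in Input RNA, 374 with PABPC and 121 with PABPN. In both, the PABPN IP was the lowest of the 3 fractions. PSMB4 and PSMB6 had ratios of 1.67 and 1.81 for the PABPC IP over the PABPN IP, and PSMB7 and PSMB1 of 1.55 and 1.24. The α ring lay less far, with a median of 0.79 and a range from 0.42 for PSMA7 to 1.31 for PSMA2. PSMB10 reached 1.03 by a different route, since its PABPC IP over Input ratio was 0.78, the highest of the members, and it was at -0.20 in the PABPN IP over the Input.

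Regulatory particle mRNAs lay the same way with more exceptions. The ATPase mRNAs had a median of 0.92, led by PSMC5 at 1.38, PSMC3 at 1.16 and PSMC4 at 1.12. PSMC6 alone among them did not pass 0.5, at 0.03. Lid mRNAs had a median of 0.56, with PSMD8 at 1.41, PSMD3 at 1.08 and PSMD12, at 0.20, the only one that did not pass. PSMD1 went towards PABPN, at -0.83, with a TPM of 32.1 in Input RNA, 32.2 with PABPC and 65.3 with PABPN. It was the only subunit of the core or regulatory particle below -0.5. Its partner scaffold PSMD2, of similar coding length, lay at 0.83. The base chaperones PSMD10 and PSMD9 had 1.35 and 0.59.

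The other exceptions lay among activators, core chaperones and name matches. PSME4 had the lowest PABPC IP over PABPN IP ratio, -1.47, with a TPM of 23.9 in Input RNA, 28.2 with PABPC and 89.6 with PABPN, and its PABPN IP over Input ratio was 0.77. PSME1 was at the other end, at 1.68, and PSMF1, PSME3 and PSME2 had 1.10, 0.95 and 0.52. The chaperone dimers differed from each other. PSMG1 and PSMG2 had 1.39 and 0.78, while PSMG3 and PSMG4 had -0.23 and -0.41. PSMG3 and PSMG4 also had the highest PABPN IP over Input ratios of the members, 0.84 and 0.83, and PSMG3 passed 0.5 in the PABPC IP over the Input as well, at 0.57. PSMC3IP had -0.87 and PSME3IP1 0.40.

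Editing was not higher in the PABPC IP for most members. EPKM was higher with PABPC than with PABPN for 20 of 45 members (44.4%), against 56.4% of PCGs, and lower for 22. By at least 2-fold on the log2(EPKM + 0.01) scale, 9 members were higher in the PABPC IP (36.3% of PCGs) and 9 in the PABPN IP (21.1% of PCGs). Those higher in the PABPC IP were PSMD3, PSMC1, PSMD13, PSMA2, PSMA7, PSMB10 and PSMD8, with log2 differences from 1.04 to 2.76, and PSMG1 and PSMF1, both listed at 0 in the PABPN IP. Those higher in the PABPN IP were PSMD7, PSME4, PSMC5, PSMD2 and PSMC3IP, with log2 differences from -3.89 to -1.27, and PSMD14, PSMD6, PSMC6 and PSME2, all listed at 0 in the PABPC IP. Of the 9 higher in the PABPN IP, 7 are regulatory particle or activator mRNAs whose TPM ratio favoured the PABPC IP or was near 0, and PSME4 and PSMC3IP also favoured the PABPN IP in TPM. A pseudocount of 0.1 in place of 0.01 left 2 and 5 members past 2-fold.

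**Figure D3:**
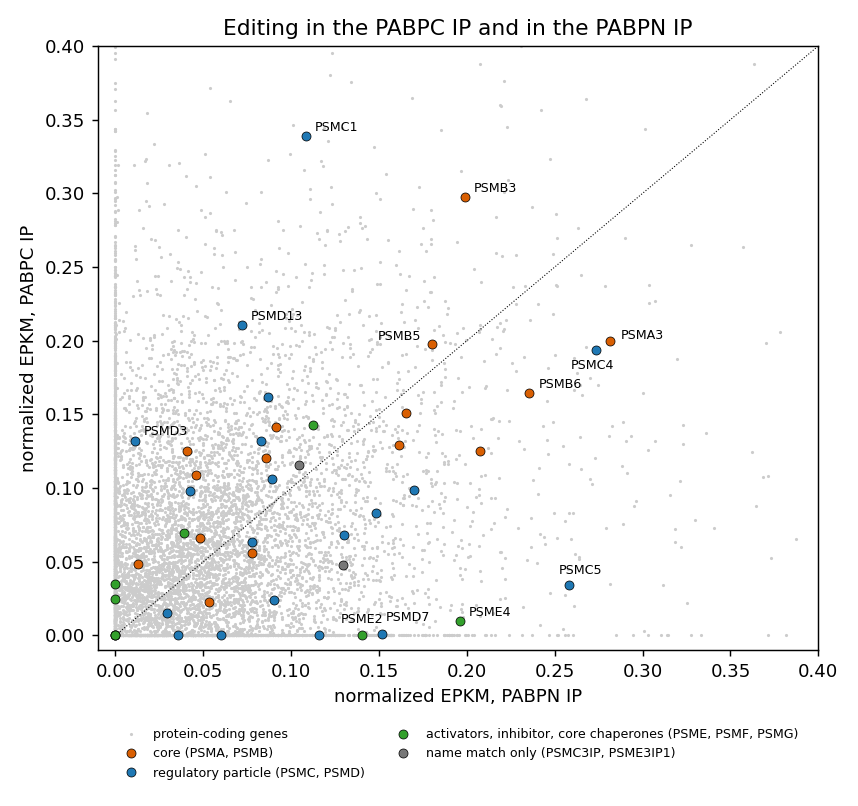
Normalized EPKM in the PABPC IP (vertical axis) against the PABPN IP (horizontal axis) for PCGs (grey) and 45 proteasome mRNAs (coloured by class), with the dotted line marking equal values. Of the members, 20 lie above the line and 22 below, and 124 PCGs lie beyond the axes, which end at 0.4.

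Divided by TPM, the members' medians in the IPs lay further apart, in part by construction. Divided by TPM, the members' median was 0.160 EPKM per 100 TPM in Input RNA, 0.0524 with PABPC and 0.140 with PABPN. The PCG medians were 0.161, 0.138 and 0.0704. Members were thus level with PCGs in Input RNA, lower with PABPC and higher with PABPN. By this measure 11 of 45 members were higher with PABPC than with PABPN, and of 9607 PCGs 5718 were. None of the 7 constitutive β mRNAs was among the 11. EPKM is already scaled by the authors, so dividing it by TPM was an added description, chosen after the values were seen. Most members had a higher TPM with PABPC than with PABPN, so the division lowers their PABPC IP values more. The shift from 20 to 11 members therefore restates the TPM ratios and is not a separate result on editing.

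Against the Input, the members' editing in the IPs divided without a common direction. In the PABPC IP, 19 of 45 were higher than in the Input (57.3% of PCGs). By at least 2-fold, 13 were higher (35.1% of PCGs) and 14 lower (19.5% of PCGs). A pseudocount of 0.1 in place of 0.01 left 5 higher and 5 lower. In the PABPN IP, 22 were higher than in the Input (45.2% of PCGs), 17 of them by at least 2-fold (28.4% of PCGs). Another 14 were lower by at least 2-fold (29.6% of PCGs). Here a pseudocount of 0.1 left 5 higher and 3 lower. The constitutive β ring was mostly lower in the IPs, with 5 of 7 lower with PABPC than in the Input (3596 of 9607 PCGs) and 6 of 7 lower in the PABPN IP (4544 of 9607 PCGs). ATPase mRNAs differed from the β ring in the PABPN IP, where 5 of 6 were higher than in the Input (45.2% of PCGs). PSMC2 had 0.00873 in the Input and 0.130 in the PABPN IP, and PSMB5 had 0.524 and 0.180.

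Core and regulatory particle mRNAs were then set against each other. Core mRNAs (15 of 16 past the filter) were edited more than the 19 regulatory particle mRNAs in the Input, with medians of 0.156 in core and 0.0688 in regulatory mRNAs, and in the PABPC IP, with 0.125 and 0.0832. With PABPN they were nearly equal, at 0.0912 and 0.0893. The core minus regulatory difference went from 0.0422 to 0.0272 in the PABPC IP without PSMD9 and PSMD10, and from 0.00189 to 0.037 in the PABPN IP without PSMB10. The classes overlapped widely in every fraction. Core mRNAs ranged in the Input from 0 for PSMA7 and PSMB7 to 0.524, and regulatory mRNAs from 0 for PSMD2 and PSMD7 to 0.323 for PSMD10. Subunits of 1 complex are not replicates of it, so no test was made.

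Core mRNAs were also the more abundant. Median TPM of core and regulatory mRNAs was 102 and 51.5 in Input RNA, 238 and 79.1 with PABPC and 93.1 and 61.1 with PABPN. The median EPKM per 100 TPM, in the same order, was 0.166 and 0.173 in Input RNA, 0.0595 and 0.0581 with PABPC and 0.113 and 0.147 with PABPN. Per TPM the core median was thus below the regulatory median in the Input and the PABPN IP and slightly above it in the PABPC IP. The classes also overlapped in the PABP ratios, from 0.42 to 1.83 in core and -0.83 to 1.41 in regulatory mRNAs for the PABPC IP over the PABPN IP, where the α ring median of 0.79 lay below the ATPase median of 0.92. The median centred log2 TPM ratio of the PABPC IP over the PABPN IP was 1.18 and 0.63, and that of the PABPC IP over the Input 0.14 and -0.20, in core and regulatory mRNAs. In the PABPN IP over the Input they were similar, at -1.02 and -0.94.

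**Figure D4:**
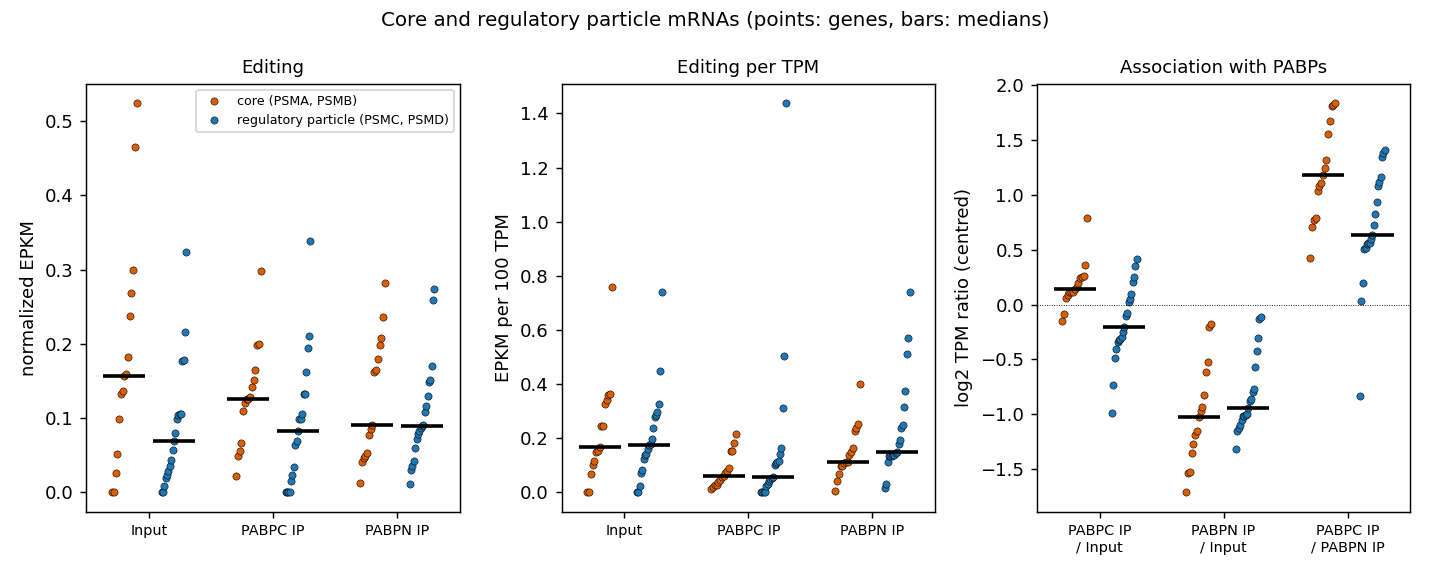
Core (orange, 15 genes) and regulatory particle (blue, 19 genes) mRNAs by normalized EPKM in each fraction (left), EPKM per 100 TPM (middle) and centred log2 TPM ratio between fractions (right), with a point for each gene and a bar at the median. The core bar is higher than the regulatory bar for EPKM in the Input and for the PABPC IP over PABPN IP ratio, and the classes are close for EPKM in the PABPN IP and per TPM in the Input.

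Coding length moves with these ratios over PCGs and was different between the classes. Core coding sequences ranged from 606 to 834 nt and regulatory ones from 672 to 2862 nt. Across 9556 PCGs with a coding length, the PABPC IP over PABPN IP ratio and coding length had a Spearman's rho of -0.62, and across the 45 members -0.17. For the PABPC IP over the Input the values were -0.66 and -0.59, and for the PABPN IP over the Input 0.41 and -0.05. The members thus followed the PCGs in the PABPC IP over the Input and not in the PABPN IP over the Input. Other PCGs of core length (1057 genes) had a median PABPC IP over PABPN IP ratio of 0.58, against 1.18 in the core, and a median PABPN IP over Input ratio of -0.29, against -1.02. Other PCGs of regulatory length (6579 genes) had -0.01 and 0.00, against 0.63 and -0.94 in the regulatory mRNAs. In the PABPC IP over the Input the members lay below other PCGs of their length, with 0.14 in the core against 0.26 and -0.20 in the regulatory mRNAs against -0.02. PSME4 and PSMD1, the longest members at 5532 and 2862 nt, both favoured the PABPN IP, whereas PSMG3 and PSMG4, the shortest at 369 and 372 nt, did not favour the PABPC IP.

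**Figure D5:**
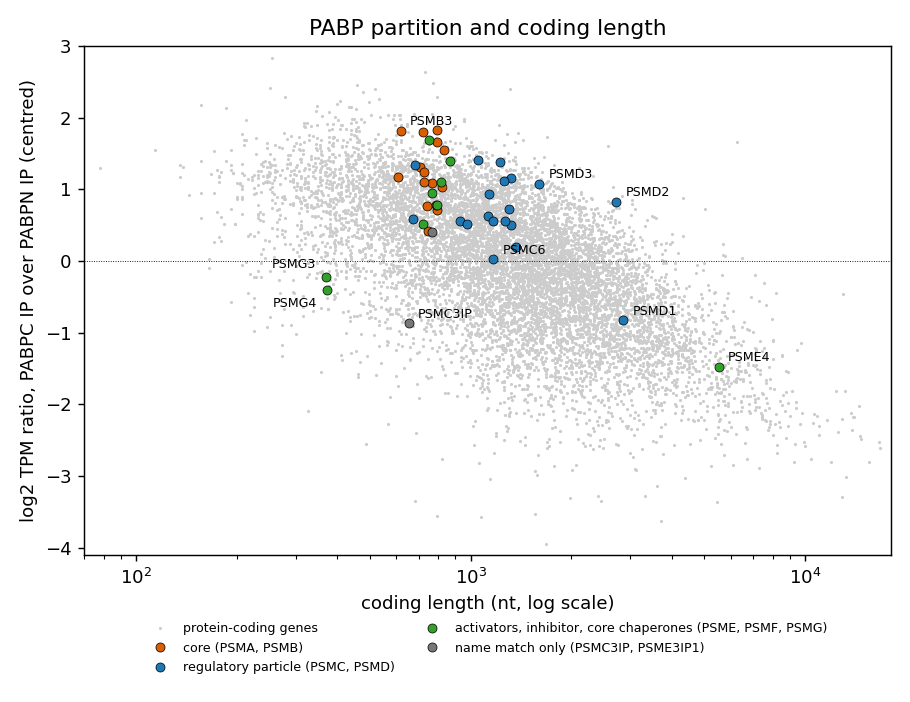
Centred log2 TPM ratio of the PABPC IP over the PABPN IP (vertical axis) against coding length in nt (horizontal axis, log scale) for PCGs (grey) and 45 proteasome mRNAs (coloured by class). Most core and regulatory mRNAs lie in the upper part of the cloud at their length, PSMA7 at 0.42 being a core exception, with PSMD2 high for its 2727 nt and PSMG3, PSMG4 and PSMC3IP low for theirs.

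In the ratio between the IPs and in that of the PABPN IP over the Input, the medians of other pathway genes lay nearer to 0 than those of the proteasome mRNAs. Of 28 names chosen, 27 were listed and 26 passed the TPM filter. For the PABPC IP over the PABPN IP, 8 of 26 lay above 0.5 (30.4% of PCGs) and 4 below -0.5 (31.5% of PCGs), with a median of -0.03. In the PABPN IP over the Input, 10 of 26 lay below -0.5 (21.6% of PCGs) and 3 above 0.5 (24.5% of PCGs), with a median of -0.21. POMP, the maturation factor of the core, lay within the range of the β ring, with ratios of 1.66 and -1.23. ADRM1, a ubiquitin receptor of the regulatory particle, had 1.18 and -1.01. Both encode parts or builders of the particle itself. SEM1, the small lid subunit, was the gene that did not pass the filter, with a TPM of 0.921 in the Input.

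In editing, 7 of the 26 pathway mRNAs were at least 2-fold higher with PABPC than with PABPN (36.3% of PCGs) and 8 at least 2-fold lower (21.1% of PCGs). The higher ones included RPS27A, which encodes a ubiquitin fusion, the ubiquitin shuttles RAD23B, UBQLN1 and UBQLN4, the transcription factor NFE2L2 and ADRM1. RPS27A went from 0.246 in the PABPN IP to 0.576 in the PABPC IP, and ADRM1 was listed at 0 with PABPN and 0.131 with PABPC. The lower ones included POMP, the unfoldase VCP and its cofactors NPLOC4 and UFD1, the deubiquitinases USP14 and UCHL5 and the thioredoxin TXNL1. VCP had 0.105 with PABPC and 0.321 with PABPN, POMP had 0.0545 and 0.186, and USP14 had 0.0679 and 0.209. NPLOC4 was listed at 0 with PABPC and 0.203 with PABPN.

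The chaperonin CCT, another complex of many subunits made in fixed proportions, was used for comparison. Its 8 mRNAs had a median PABPC IP over PABPN IP ratio of 0.83 against 0.83 in the proteasome mRNAs, and 8 of 8 lay below -0.5 in the PABPN IP over the Input, against 33 of 45 and 21.6% of PCGs. In the PABPC IP over the Input the complexes differed, with a CCT median of -0.36 and 0 of 8 above 0, against 0.09 and 27 of 45. Their median EPKM was 0.208 in Input RNA, 0.120 with PABPC and 0.0972 with PABPN, highest in the Input, and 5 of 8 were higher with PABPC than with PABPN, near the 56.4% of PCGs. None of the 8 was higher with PABPN than in the Input, against 22 of 45 proteasome mRNAs and 45.2% of PCGs. With pooled values and 8 genes, these differences were not tested.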

How the data were processed

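Ribodepleted RNA from the Input, PABPC IP and PABPN IP of RPS2-STAMP and Control-STAMP cells was sequenced. Alignment by the authors used STAR and hg38. EPKM was computed from C-to-U edits that passed a confidence score, and the deposited normalized EPKM is a signal from which control editing was subtracted. Negative differences and the pooling of replicates are not explained in the sources used here. The deposited TPM is the authors' average for each fraction, the sum of exonic and intronic TPM counted with featureCounts 2.0.2 on a custom annotation, derived from an earlier GENCODE release, without overlapping gene regions.

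Medians, counts and log2 ratios were computed from these values, over PCGs whose TPM reached 5 in each IP. EPKM folds used log2(EPKM + 0.01) with a threshold of 2-fold, and TPM ratios were centred on the PCG median with a threshold of 0.5. The tests set for values per replicate were not run, because the values are pooled. All genes of the naming rule are named, as are the pathway genes past 2-fold in EPKM between the IPs, apart from some that are not reported here. The members and lists were chosen with earlier results of these data known. Gene positions, coding sequences, overlaps and pseudogenes came from GENCODE release 44 on hg38, where 46 of 46 members matched. The counting of calls was tested on simulated data. Alternatives changed the gene set, summary, pseudocounts, thresholds and centring, and a value within a factor of 1.5 was counted as unmoved. The software was matplotlib 3.10.9, NumPy 2.4.6, SciPy 1.17.1 and pandas 2.3.3 under Python 3.11.15.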

Additional observations from a re-analysis of the deposited data

Results flagged for a closer look

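Genes with PSM names and another biotype took no part in the comparisons. Of 9 such genes in the table, 6 were edited above 0 in some fraction, and such a value lies above the editing in Control-STAMP by construction. Among processed pseudogenes, PSMC1P1 had 0.0575 in Input RNA, 0.126 with PABPC and 0.0555 with PABPN, with its highest value in the same fraction as PSMC1. PSMA6P1 had 0.0827 and PSME2P2 0.0643 in the PABPN IP, and both were listed at 0 in the other fractions. Among the antisense RNAs, PSMA3-AS1 had 0.0392 in the Input, PSMD6-AS2 had 0.00869 in the PABPN IP and PSMG3-AS1 had 0.000356 in the Input. The part of reads shared between such a gene and its partner was not tested.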

How the results depend on the processing

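For 27 results, 117 alternatives were computed, of which 89 gave an unmoved value. No paired analysis was possible because each value pools its replicates, and leaving out each replicate was not run for the same reason. Core minus regulatory median EPKM in the Input turned from 0.0873 to -0.00746 per 100 TPM, an alternative chosen after seeing the data, and in the PABPC IP it went from 0.0422 to 0.0272 without PSMD9 and PSMD10 and to 0.00141 per 100 TPM. In the PABPN IP it turned from 0.00189 to -0.000951 with no TPM filter and to -0.0347 per 100 TPM, and was 0.0186 with means and 0.037 without PSMB10. With means the members' Input EPKM was 0.11. Per 100 TPM, 11 members were higher with PABPC than with PABPN. A pseudocount of 0.1 left 2 members at least 2-fold higher with PABPC than with PABPN and 5 lower, 5 higher and 5 lower with PABPC than in the Input, and 5 higher and 3 lower with PABPN than in the Input. At 1.5-fold, 15 were lower with PABPC than with PABPN. With a TPM ratio threshold of 1, 20 members lay above and 1 below when the IPs were compared, 0 and 0 for the PABPC IP over the Input, and 0 and 19 for the PABPN IP over the Input. Without centring, the PABPC IP over Input median was 1.08, with 42 above 0.5 and 0 below -0.5, and the PABPN IP over Input median turned to 0.204, with 17 above and 1 below. The cause of these changes was not tested, with 2 exceptions that hold by construction. A larger pseudocount or threshold leaves fewer genes past it, and division by TPM lowers values more where TPM is higher. The number of reads behind each gene's value is unknown, so the counting error of each value is too.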
